A study of Mus musculus with 6 samples.

Results

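Xbp1 and 9 further genes of the unfolded protein response were examined in LECs, lymphatic endothelial cells, which form the wall of lymphatic vessels. The genes are the sensors Ern1, Atf6 and Eif2ak3, the transcription factors Xbp1, Atf4 and Ddit3, the chaperones Hspa5, Hsp90b1 and Dnajb9, and the degradation factor Herpud1. All probe sets to which the platform annotation gives a single one of these symbols were taken, which gave 28 probe sets for the 10 genes, out of 45037 probe sets and 18193 genes in all. Xbp1 was selected on its difference between the groups on these same arrays, where its lower signal in the tumour samples was already known, and the other 9 are genes of the same pathway. The levels of the 10 genes are therefore given as a description, with no test.

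The study hybridised 6 mouse Affymetrix arrays, 1 per sample. Of these, 3 held tumour-associated LECs from MDA-MB-435 xenografts, grown subcutaneously and taken 8 weeks after injection, and 3 held LECs from mammary skin of healthy mice of the balb-c/nude strain. MDA-MB-435 is a human cancer line that was long treated as a breast cancer line and was later traced to melanoma. Nude mice lack a functional thymus and so most T cells, and the labels name the strain of mouse for the healthy skin alone and give no age. In both groups the vessels were stained briefly for LYVE-1, the hyaluronan receptor of lymphatic endothelium, cut out by laser capture and amplified with a single round of Ribo-SPIA. Biological replicates are declared in the labels but no animals are named, so the spread given here is the spread between these samples.

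The unfolded protein response adjusts the folding capacity of the endoplasmic reticulum (ER) to its load of secretory and membrane proteins. Its sensors sit in the ER membrane. IRE1, encoded by Ern1, removes a short intron from the Xbp1 mRNA so that the active form of the transcription factor can be made, PERK, encoded by Eif2ak3, slows translation and favours that of ATF4, and ATF6 is cut in the Golgi to release a transcription factor. Their targets are chaperones, enzymes of disulphide formation and the machinery that returns misfolded proteins to the cytosol for degradation. Xbp1 is known above all for its part in professional secretory cells such as plasma cells and gland cells. Splicing of the Xbp1 mRNA, phosphorylation and cleavage of the sensors were not measured here.

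Values are the authors' signals on a log2 scale. Background was set for each array at the level that 95% of its 27 bacterial control probe sets did not exceed and lay at 3.45, 3.42 and 3.91 (log2) on tumour arrays 1, 2 and 3, and at 3.81, 3.28 and 2.96 on healthy-skin arrays 1, 2 and 3. Of 8 measured markers of lymphatic endothelium, all 8 were above background on every tumour array and 7 on every healthy-skin array, the exception being Lyve1 in healthy-skin replicate 1. With a threshold of 0.05, limma's adjusted p called 2 probe sets of the whole table, or 0.00444%, and its unadjusted p 2863, or 6.36% (2.83% higher and 3.53% lower in tumours). Of the 28 probe sets described here none was called after adjustment and 1 (lower in tumours) was among those 2863, and since the contrast chose the set, nothing is read from these counts. In bulk samples such as these, fewer cells of a type and less RNA per cell cannot be told apart.

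Xbp1 averaged lower in tumour-associated LECs on all 4 of its probe sets, by amounts that ranged from -0.56 to -3.94 (log2). Its brightest probe set by mean signal over the 6 arrays was 1437223_s_at. It was brightest through its healthy-skin arrays, since in tumours 1420012_at and 1420011_s_at averaged higher, at 3.49 and 2.85. Probe set 1437223_s_at had 2.45, 2.78 and 2.40 in tumour-associated LECs, against 6.17, 6.97 and 6.29 in LECs from healthy skin. All 3 tumour values lay below their array's background and all 3 healthy-skin values well above it, with no overlap. The groups averaged 2.54 ± 0.21 and 6.48 ± 0.43 (SD, n = 3 arrays each), a log2 difference of -3.94 with a standard error of 0.32, which is the 47th lowest of the 45037. Because the tumour values are only bounded by background, the signal is given as at least 7.37-fold lower in tumours, counting each tumour value below background as the dimmest signal above background on its array. Among all probe sets 0.129% had a larger difference in either direction.

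**Figure D1:**
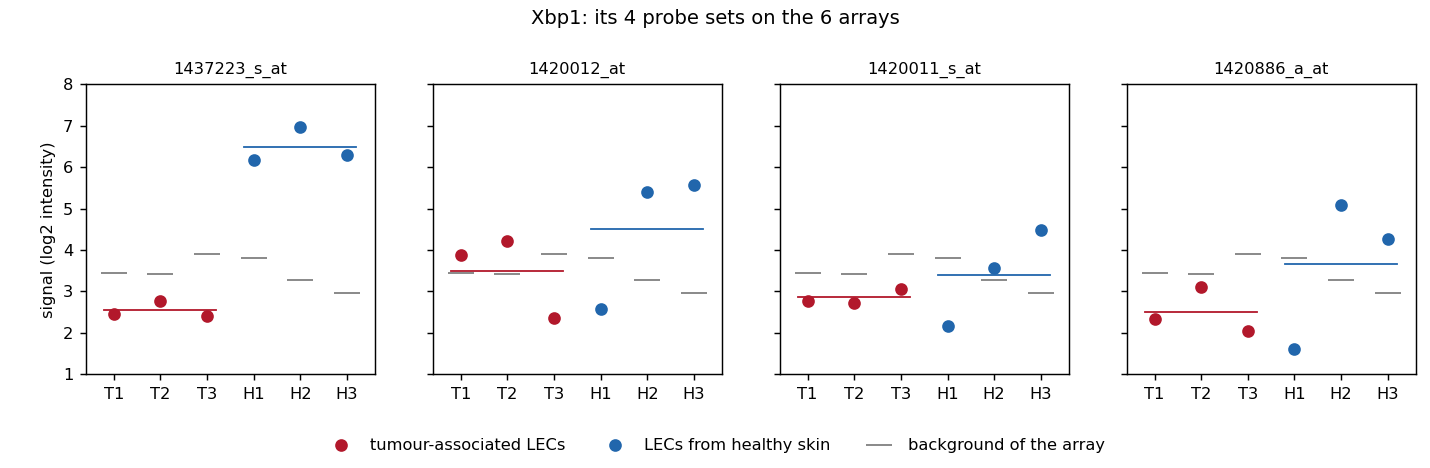
Signal of the 4 Xbp1 probe sets (log2 intensity, vertical axis) on tumour arrays T1 to T3 and healthy-skin arrays H1 to H3. Points are arrays, coloured lines the group means and grey dashes each array's background. The first probe set separates the groups by 3.94, whereas on the other 3 the healthy-skin array H1 lies among or below the tumour arrays.

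The other 3 Xbp1 probe sets showed a different pattern, in which healthy-skin replicate 1 was as low as the tumours. Probe set 1420012_at had 3.89, 4.23 and 2.36 in tumour-associated LECs and 2.57, 5.40 and 5.57 in LECs from healthy skin, a difference of -1.02 ± 0.90 (SE). Probe set 1420886_a_at had 2.33, 3.11 and 2.04 in tumours and 1.62, 5.09 and 4.27 in healthy skin, a difference of -1.17 ± 0.87. On both of these, healthy-skin replicates 2 and 3 stood above every tumour array while replicate 1 did not, so the groups overlapped. On 1420011_s_at the tumour values were 2.78, 2.73 and 3.06 and those of healthy skin 2.17, 3.57 and 4.49, a difference of -0.56 ± 0.57. Both 1420886_a_at and 1420011_s_at were above background on 0 of 3 tumour arrays and 2 of 3 healthy-skin arrays. Their differences therefore rest on values below background, and the signal of 1420886_a_at is bounded only as at least 1.04-fold lower in tumours. Without healthy-skin replicate 1 the differences of 1420012_at, 1420886_a_at and 1420011_s_at were -1.99, -2.18 and -1.18, and that of 1437223_s_at was -4.09. Without healthy-skin replicate 2 the first 3 were -0.58, -0.45 and -0.48, and without replicate 3 that of 1420011_s_at was -0.02. The size on these 3 probe sets thus rests on single arrays.

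The disagreement can be put as a distance. After each probe set was centred on its own mean, 1420886_a_at and 1420012_at differed from each other by a root mean square of 0.47 over the 6 arrays, and each differed by 0.82 from 1420011_s_at. From 1437223_s_at, the distance was 1.65 for 1420886_a_at, 1.76 for 1420012_at and 1.82 for 1420011_s_at. By the manufacturer's naming, probes of an _s_at set are shared by several transcripts, which may come from different genes. Those of an _a_at set are shared by transcripts of a single gene, while an _x_at set holds probes that may also bind other genes. Which transcripts each probe set covers, of Xbp1 or of other genes, was not analysed here. The mean over all 4 probe sets gave a difference of -1.67.

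Marker lists of other skin cells separated the groups by their means, in the same direction as Xbp1 probe set 1437223_s_at. The mean of 11 keratinocyte markers was 6.41, 5.80 and 4.66 (log2) in the tumour samples, against 7.85, 7.96 and 8.25 in healthy skin, with 9 of 11 above background on every tumour array and 11 of 11 on every healthy-skin array. The mean of 10 sebaceous gland markers was 4.35, 5.67 and 4.33 in tumours and 6.39, 7.15 and 6.51 in healthy skin, with 5 and 9 of 10 above background on every array of the group and Mc5r, the melanocortin receptor of sebaceous glands, above it on none. Both list means were lower in every tumour sample than in any healthy-skin sample, though not every member was. By group means, 10 of 11 keratinocyte markers were lower in tumours, all but Sfn (log2 difference 0.19). So were 7 of 10 sebaceous markers, while Fads2 (0.71, with no overlap), Mc5r (0.34) and Dgat2 (0.20) were higher. Krt5, Krt14, Krt15 and Scd3 averaged lower in tumours, but their groups overlapped. Pan-endothelial and lymphatic list means ran the other way. They were 5.84 to 6.07 and 7.72 to 8.00 in tumours, against 4.54 to 4.87 and 5.86 to 7.17 in healthy skin. Every measured marker of both averaged higher in tumours, though Reln by only 0.02 and Nrp2 by 0.18. The groups overlapped for Prox1, Reln, Mmrn1 and Nrp2 of the lymphatic list and for Pecam1, Tie1 and Tek of the other. The lowest lymphatic mean, 5.86, was that of healthy-skin replicate 1, where Lyve1 had 3.21. In healthy-skin replicate 1 the keratinocyte and sebaceous lists were above every tumour sample, and 1437223_s_at had 6.17. The other 3 Xbp1 probe sets had 2.57, 2.17 and 1.62 there, within or below the range of the tumours. These values all lay below that array's background of 3.81. The part of these cells in the Xbp1 difference was not tested.

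Most markers of plasma cells, a cell type that depends on Xbp1, were below background. Of 11 measured markers of plasma cells and B cells 7 were above background on no array, among them Jchain, the joining chain of secreted antibodies, and Mzb1, a chaperone of antibody-secreting cells. The list averaged 2.79 to 3.06 in tumours and 2.99 to 3.29 in healthy skin. Sdc1, a plasma cell marker that keratinocytes also express, was among the other 4. It had 6.90, 5.51 and 4.33 in tumours, against 7.89, 7.97 and 8.48 in healthy skin. Cd79a had 4.53, 4.29 and 4.65 in tumours and 4.43, 4.12 and 3.97 in healthy skin, above background on every array. Prdm1 was above background on 2 arrays of each group and Irf4 on 1 of each. The mean of markers of mammary luminal epithelium, another secretory cell, overlapped between the groups at 3.81 to 3.84 and 3.52 to 3.93. Of the 11 measured, 4 (Krt19, Cldn4, Elf5 and Csn2) were above background on no array, and Cldn3 was higher in tumours with no overlap (0.54). The ranges of the macrophage, fibroblast and pericyte list means also overlapped, with the fibroblast list at 6.08 to 9.13 in tumours and 7.77 to 9.46 in healthy skin. Higher in tumours with no overlap were Csf1r (log2 difference 1.83) and Ms4a7 (2.98) of the macrophage list. So were Cnn1 (1.16) and Cspg4 (1.18) of the pericyte list, and no marker of these lists was lower without overlap. The 6 measured adipocyte markers averaged 4.14 to 4.65 in tumours and 4.71 to 4.98 in healthy skin, with Adipoq and Cidec never above background. Each adipocyte marker overlapped between the groups, and Fabp4 (0.28) and Cidec (0.12) averaged higher in tumours.

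**Figure D2:**
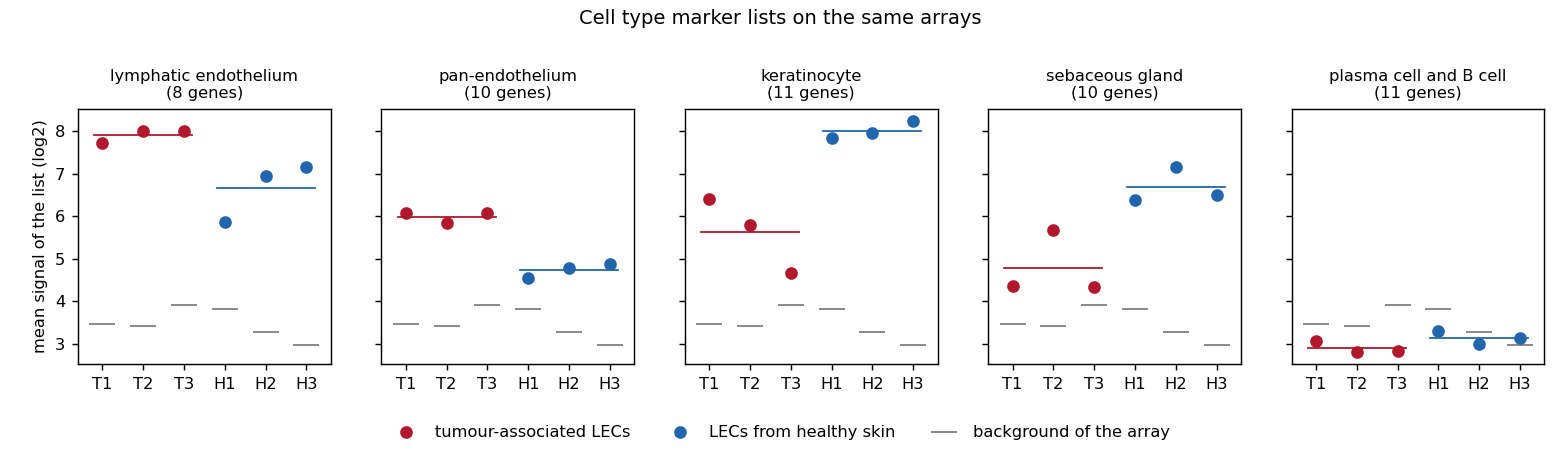
Mean signal of 5 cell type marker lists (log2, vertical axis) on tumour arrays T1 to T3 and healthy-skin arrays H1 to H3, with group means as lines and array background as grey dashes. Keratinocyte and sebaceous lists are lower and endothelial lists higher in every tumour sample, and the plasma cell and B cell list stays near background throughout.

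The genes most like 1437223_s_at were sought by the same distance over the 6 arrays, which has no test. Because the groups lie far apart on this selected probe set, the distance largely restates each gene's own difference between the groups. Peg3, an imprinted zinc finger gene, came first with a root mean square difference of 0.281, at 3.57, 4.59 and 4.01 in tumours and 7.49, 8.01 and 7.91 in healthy skin. Sbsn, a gene of keratinocyte differentiation, followed with 0.296. Itsn1, an endocytic scaffold, had 0.351, Cipc, a partner of the circadian factor CLOCK, 0.414, and Abi1, a regulator of actin assembly, 0.461. Their log2 differences ran from -4.31 for Abi1 to -3.38 for Cipc. Itsn1 and Abi1 were below background on all 3 tumour arrays, so their signals were at least 4.33-fold and at least 9.53-fold lower in tumours. By the same measure Atf4 was the nearest of the 9 pathway genes at 1.48, then Ddit3 at 1.78, and the other 7 lay between 1.88 and 2.18, around the median of 2.08 over all probe sets with a single symbol outside the 10 genes.

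The groups overlapped on every probe set of the sensors. Ern1 had 5.39, 5.13 and 5.71 in tumour-associated LECs and 6.11, 4.96 and 5.11 in LECs from healthy skin on its brightest probe set, a difference of 0.01 ± 0.39 (SE). Its other 4 probe sets differed by -0.07 to 0.57, and both of those beyond 0.2 (1450176_at and 1431886_at) were below background on every array. The enzyme that splices Xbp1 mRNA thus overlapped between the groups on all 5 probe sets, while Xbp1 did on 3 of 4. Atf6 had 4.85, 4.17 and 4.48 in tumours and 4.55, 4.17 and 3.98 in healthy skin, a difference of 0.27 ± 0.31. Its weaker probe sets differed by 0.74 and -0.10 and were above background on at most 1 array of a group.

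Eif2ak3, which encodes PERK, was in the same range. Its brightest probe set had 4.76, 4.73 and 4.38 in tumours and 4.89, 4.18 and 4.0 in healthy skin, a difference of 0.27 ± 0.33. A second, 1449278_at, had 2.89, 5.04 and 3.56 in tumours and 3.13, 2.94 and 2.87 in healthy skin. Tumour replicate 2 alone was above background there, against no healthy-skin array, and the groups overlapped. Without tumour replicate 2 that difference was 0.25 in place of 0.85. The third Eif2ak3 probe set was below background on every array.

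Among the transcription factors besides Xbp1, Atf4 had the widest difference, on its brightest probe set. That probe set, 1438992_x_at, had 8.84, 8.62 and 7.60 in tumour-associated LECs, against 10.57, 9.97 and 8.55 in LECs from healthy skin, a difference of -1.35 ± 0.59 (SE). The groups overlapped, since healthy-skin replicate 3 lay just below tumour replicates 1 and 2. Probe set 1448135_at had 6.57, 5.56 and 6.42 in tumours and 6.14, 5.69 and 7.61 in healthy skin, a difference of -0.29 ± 0.56, and healthy-skin replicate 3, the lowest of its group on the first, was the highest on the second. The third, 1439258_at, differed by 0.21 ± 0.32, and the mean over all 3 by -0.48. ATF4 protein is controlled mainly through translation of its mRNA, which these arrays do not measure.

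Ddit3 encodes CHOP, the factor that PERK signalling through ATF4 induces and that favours cell death under lasting stress. It had 6.95, 6.34 and 6.24 in tumours and 6.92, 6.95 and 7.06 in healthy skin on its brightest probe set. Tumour replicate 1 lay among the healthy-skin values and replicates 2 and 3 lay below them, a difference of -0.46 ± 0.30 with overlap. Its other probe set had a single value above background, in healthy-skin replicate 1, and differed by -0.20 ± 0.46.

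**Figure D3:**
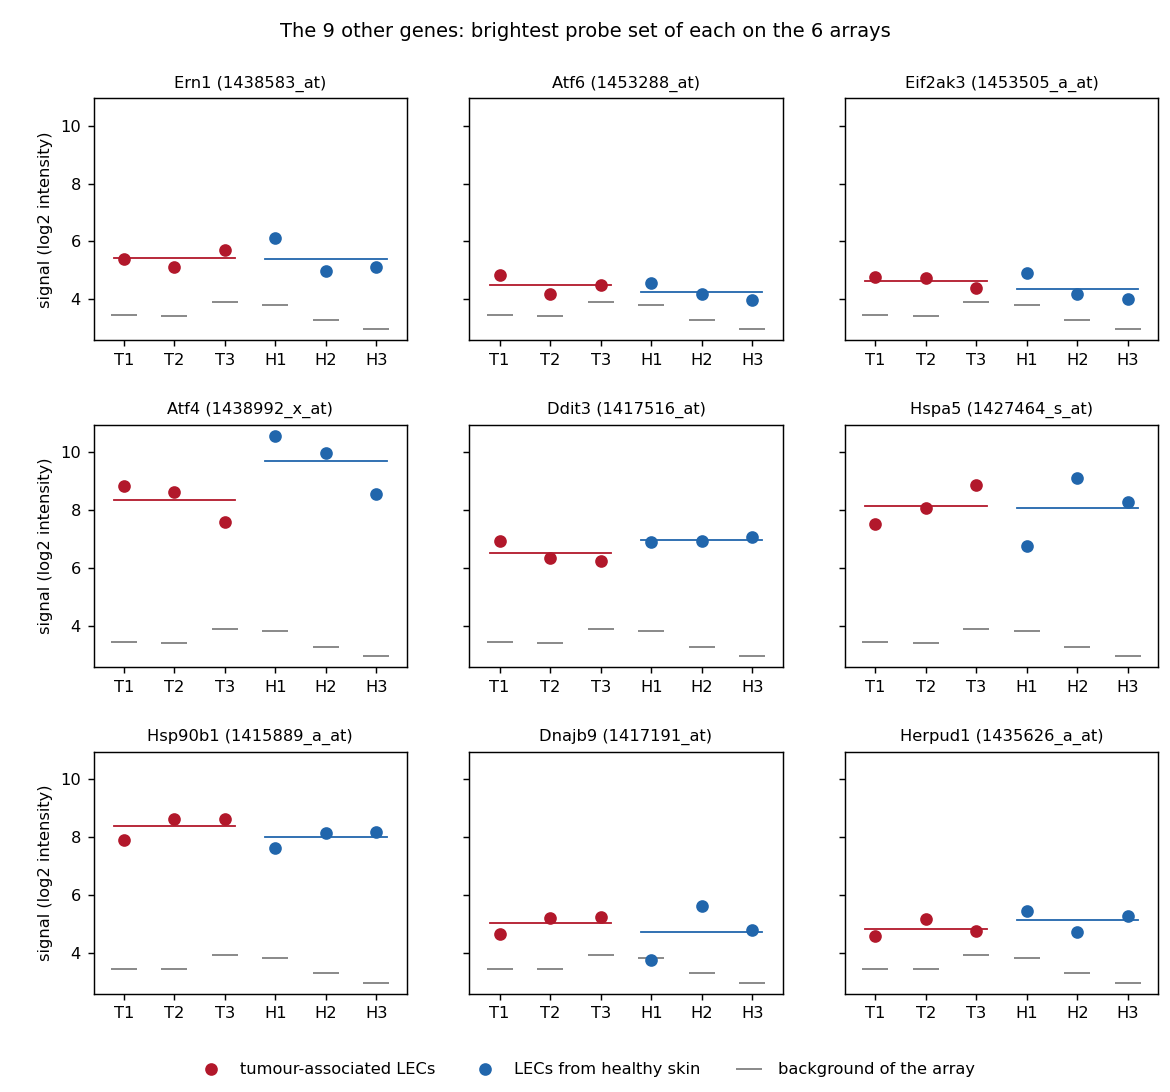
Signal of the brightest probe set of each of the 9 other genes (log2 intensity, vertical axis) on tumour arrays T1 to T3 and healthy-skin arrays H1 to H3, with group means as lines and array background as grey dashes. The groups overlap in all 9 panels, and in the panels of Hspa5, Hsp90b1 and Dnajb9 the healthy-skin array H1 is the lowest of the 6.

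The chaperones and Herpud1, at the end of the pathway, overlapped between the groups on every probe set. Hspa5, which encodes BiP, the most abundant ER chaperone and the partner that holds the sensors inactive, had 7.53, 8.07 and 8.87 in tumours and 6.78, 9.13 and 8.29 in healthy skin, a difference of 0.09 ± 0.65. On 1416064_a_at it had 7.97, 8.95 and 6.57 in tumours and 6.69, 9.14 and 8.11 in healthy skin, a difference of -0.15 ± 0.80, and its remaining probe set differed by -0.05 ± 0.28. The SD of the healthy-skin samples, 1.19 and 1.23 on the first and the second, exceeded these differences. Leaving out healthy-skin replicate 1 turned the first of them to -0.55, and leaving out replicate 2 gave 0.63.

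Hsp90b1, the ER member of the HSP90 family, had 7.88, 8.63 and 8.61 in tumours and 7.62, 8.14 and 8.19 in healthy skin, a difference of 0.39 ± 0.34. Its second probe set had 8.03, 8.06 and 7.76 in tumours and 6.96, 8.31 and 7.53 in healthy skin, a difference of 0.35 ± 0.39. Both overlapped, with healthy-skin replicate 1 the lowest array. Dnajb9, a co-chaperone of BiP whose gene is a target of Xbp1, had 4.66, 5.21 and 5.22 in tumours and 3.73, 5.6 and 4.77 in healthy skin, a difference of 0.33 ± 0.50. Without healthy-skin replicate 1, whose value lay below background, it was -0.15, and without replicate 2 it was 0.78.

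Herpud1, a membrane protein that helps assemble the degradation complex, had 4.57, 5.17 and 4.74 in tumours and 5.43, 4.70 and 5.28 in healthy skin, a difference of -0.31 ± 0.33. On its second probe set it differed by 0.11 ± 0.27, with 4.19, 4.44 and 4.70 in tumours and 4.30, 4.46 and 4.25 in healthy skin. The 2 probe sets thus had opposite signs, both within the overlap of the groups.

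**Figure D4:**
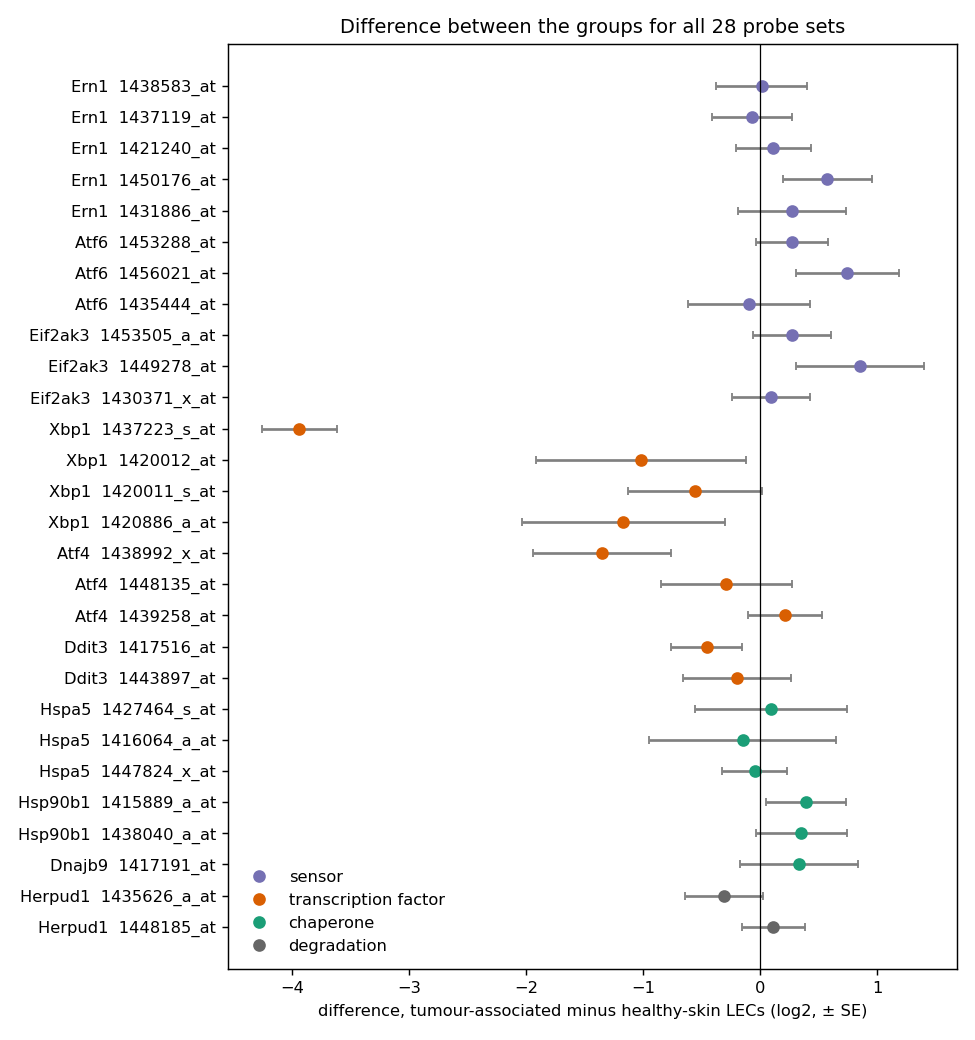
Difference between tumour-associated and healthy-skin LECs (log2, horizontal axis) for all 28 probe sets, with the standard error from limma as bars and colours for the role of each gene. Probe set 1437223_s_at of Xbp1 stands at -3.94, and the other 27 lie between -1.35 and 0.85.

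Across the 28 probe sets 15 differences were positive and 13 negative, with a median of 0.05, against 0.06 over all probe sets. The groups did not overlap on 1 probe set, with tumours lower, and on none with tumours higher, where the shares over all probe sets were 4.91% and 6.22%. Without the 4 of Xbp1 the median absolute difference was 0.27 over 24 probe sets, against 0.32 over all 45037. In total 25 of the 28 were above background on at least 1 array and 15 on all 6.

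The promoters show what some of these genes share in sequence. ATF6 and XBP1 act through the ER stress response element (ERSE) and the related ERSE-II. Exact matches on either strand occur in 0.119% and 0.0365% of 32851 RefSeq promoters (250 bases before to 50 after a start site, build GRCm38.p6). Promoters were found for 9 of the 10 genes, all but Atf6. Of these, Hspa5 and Hsp90b1 hold an ERSE, Hsp90b1 in 2 copies on opposite strands, and Herpud1 holds an ERSE-II. The 250 bases before the start site are shown for these 3 genes, whose signals differed by -0.31 to 0.39 between the groups, and for Xbp1, with ERSE and ERSE-II matches in capitals.
Hspa5 (chr2:34771840-34772089, plus strand): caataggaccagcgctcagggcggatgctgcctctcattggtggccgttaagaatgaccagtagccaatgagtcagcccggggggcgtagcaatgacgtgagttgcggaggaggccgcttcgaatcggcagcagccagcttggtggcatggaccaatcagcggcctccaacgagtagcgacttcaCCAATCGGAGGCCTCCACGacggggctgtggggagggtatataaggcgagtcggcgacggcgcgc
Hsp90b1 (chr10:86705445-86705694, minus strand): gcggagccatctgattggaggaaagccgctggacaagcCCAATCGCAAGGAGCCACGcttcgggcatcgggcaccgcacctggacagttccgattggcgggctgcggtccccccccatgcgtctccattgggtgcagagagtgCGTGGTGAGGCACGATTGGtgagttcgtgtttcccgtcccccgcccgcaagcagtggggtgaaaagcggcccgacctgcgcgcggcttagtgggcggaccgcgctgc
Herpud1 (chr8:94386179-94386428, plus strand): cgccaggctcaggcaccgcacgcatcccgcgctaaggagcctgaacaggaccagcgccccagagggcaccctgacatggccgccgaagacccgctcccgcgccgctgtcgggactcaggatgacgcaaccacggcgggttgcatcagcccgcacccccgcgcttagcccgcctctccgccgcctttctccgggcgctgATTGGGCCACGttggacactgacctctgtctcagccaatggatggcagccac
Xbp1 (chr11:5520391-5520640, plus strand): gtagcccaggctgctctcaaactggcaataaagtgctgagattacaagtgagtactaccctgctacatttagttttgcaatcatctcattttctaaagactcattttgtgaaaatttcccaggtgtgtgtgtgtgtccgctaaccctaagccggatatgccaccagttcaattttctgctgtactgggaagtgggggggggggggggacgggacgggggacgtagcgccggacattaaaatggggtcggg
Neither element was found in the Xbp1 window, which says only that these letters are absent there. The element TGACGTGG (UPRE), which holds CGTGG, the reverse complement of the CCACG that ends the other elements, was in none of the 9 promoters and in 0.676% of all. The element TGATGNAA (CARE), to which ATF4 binds with C/EBP partners, was found in Herpud1 alone and in 3.97% of all promoters. A match is a sequence description and not evidence of binding in these cells.

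Among 110 further genes of the pathway, in 5 lists, limma with Benjamini-Hochberg adjustment called none in either direction, against 0.0055% of all 18193 genes. The groups did not overlap for 8 of the 110 with tumours higher and 4 with tumours lower, where the shares over all genes were 6.58% and 5.36%. At an unadjusted p under 0.05 there were 6 higher and 2 lower in tumours, or 5.45% and 1.82% of the 110, where all genes had 3.22% and 4.28%, or 7.5% in either direction. The median difference was 0.01 over the 110 genes and 0.08 over all genes. Each gene was represented by its brightest probe set.

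ER chaperones and folding enzymes, 21 genes, had a median difference of 0.42, with 13 positive and 8 negative. None passed, and 1 was higher at an unadjusted p under 0.05. Pdia3, a disulphide isomerase for glycoproteins, had 8.11, 7.91 and 7.86 in tumours, above the 5.98, 7.64 and 6.58 of healthy skin (difference 1.23, limma adjusted p = 0.726). Hyou1, a nucleotide exchange factor for BiP, had 7.20, 5.44 and 5.34 in tumours and 6.55, 8.22 and 7.73 in healthy skin (difference -1.51, limma adjusted p = 0.789). Its remaining probe sets had the opposite sign, at 0.81 and 1.18. The secreted stress proteins Creld2 and Manf differed by -1.04 and -0.81 (limma adjusted p = 0.863 and 0.865). The median of this list was 0.01 without tumour replicate 2 and 0.09 with the mean of all probe sets of a gene.

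Matches to the stress elements were counted in the lists as well. Of the 18 chaperone and folding genes with a promoter 6 hold an ERSE and Dnajb11 holds an ERSE-II, and Derl3 and Syvn1 of the degradation list hold an ERSE. Of all promoters 0.119% hold an ERSE and 0.0365% an ERSE-II. The lists were drawn up from known genes of the pathway, so nothing is read from these counts. The matches are set out beside those of the genes described above, written in the direction of the element, with the fixed letters in capitals and the free ones in lower case.
Hspa5: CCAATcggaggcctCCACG
Hsp90b1: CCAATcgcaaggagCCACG
Hsp90b1: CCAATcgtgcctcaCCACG
Herpud1: ATTGGgCCACG
Calr: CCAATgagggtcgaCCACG
Canx: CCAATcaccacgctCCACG
Pdia6: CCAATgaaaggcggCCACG
Ero1b: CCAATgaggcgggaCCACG
Dnajc3: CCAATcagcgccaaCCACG
Creld2: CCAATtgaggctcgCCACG
Dnajb11: ATTGGcCCACG
Derl3: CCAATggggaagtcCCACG
Syvn1: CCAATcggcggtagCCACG
The 12 genes with these elements had a median difference of 0.24, 7 of them positive, and ran from -1.04 for Creld2 to 1.04 for Dnajc3, a co-chaperone that also inhibits PERK and whose other 4 probe sets differed by -0.63 to -0.35. None separated the groups without overlap. Calr and Canx, the lectin chaperones calreticulin and calnexin, differed by -0.33 and 0.96, and the other Canx probe sets by -1.22 and 0.56.

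ER-associated degradation, 19 genes, had a median difference of -0.12, with 9 positive and 10 negative and none past the test. Selenos, a selenoprotein of the degradation complex, had 5.39, 6.32 and 4.34 in tumours, below the 7.29, 8.49 and 7.11 of healthy skin (difference -2.28, limma adjusted p = 0.579). That value comes from an _x_at probe set, and its others differed by -1.23 and -0.08. Faf2, which recruits the segregase p97, differed by 0.99, Ufd1, a cofactor of the same enzyme, by 1.26 and Erlec1, an ER lectin, by 0.89 (limma adjusted p = 0.729, 0.843 and 0.868). The second probe set of Ufd1 differed by -0.97, and those of Erlec1 by 0.56 and -0.97.

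The PERK and ATF4 list, 25 genes, had a median of 0.07, with 15 positive and 10 negative and none past the test. Aars, the alanyl-tRNA synthetase, had 6.56, 6.40 and 6.30 in tumours, above the 5.53, 5.27 and 5.55 of healthy skin (difference 0.97, limma adjusted p = 0.582), and differed by 0.23 on its second probe set. Sars, the seryl-tRNA synthetase, differed by 0.84, and by 0.83 on its second probe set (limma adjusted p = 0.812). Eif2ak4, the amino acid sensor GCN2, differed by 0.94 and Shmt2, the mitochondrial serine hydroxymethyltransferase, by -1.49 (limma adjusted p = 0.71 and 0.716). The other Eif2ak4 probe set differed by 0.13 and those of Shmt2 by -0.75 to 0.06. On its brightest probe set Eif2ak4 was above background on 3 of 3 tumour arrays and 1 of 3 healthy-skin arrays. Asns, a classic ATF4 target, had 5.78, 5.98 and 6.0 in tumours and 6.51, 6.04 and 5.21 in healthy skin, and was chosen for mention after its values were seen. Its means were 5.92 in both groups. Psat1, an enzyme of serine synthesis and an ATF4 target, was also added after its values were seen, because its probe sets differed by unlike amounts. Its brightest had 4.80, 7.57 and 4.32 in tumours and 5.09, 8.51 and 8.25 in healthy skin (difference -1.72, limma adjusted p = 0.87). The other, an _s_at set, had 4.49, 4.15 and 2.44 in tumours and 7.90, 8.39 and 7.80 in healthy skin, with no overlap (difference -4.34, limma adjusted p = 0.172). In the list 2 genes were higher and 1 lower at an unadjusted p under 0.05. CARE was found in 8 of the 22 genes with a promoter, Aars, Asns, Atf3, Chac1, Nupr1, Slc7a11, Trib3 and Vldlr, in a list drawn up from known ATF4 targets and regulators.

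Translocon, signal peptide and COPII genes, through which new proteins enter and leave the ER, had a median of -0.40 over 27 genes, with 11 positive and 16 negative. None passed, and none had an unadjusted p under 0.05. Ssr3, a subunit of the translocon-associated complex, differed by -1.17, the COPII coat genes Sec31a and Sec24d by -0.91 and -0.72, and Sec13 by 0.81 (limma adjusted p = 0.848, 0.843, 0.871 and 0.848). The median was 0.10 without healthy-skin replicate 2.

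The list of stress sensors, relatives and processing enzymes had a median of -0.09 over 18 genes, with 8 positive and 10 negative and none past the test. Rtcb, the ligase that joins the Xbp1 exons after IRE1 has cut them, had 6.93, 6.74 and 6.55 in tumours, above the 5.57, 5.93 and 5.78 of healthy skin (difference 0.98, limma adjusted p = 0.594), and differed by 0.73 and 0.29 on its other probe sets. Wfs1, the ER membrane protein wolframin, differed by 0.92 (limma adjusted p = 0.719), with 2 of 3 tumour arrays and 1 of 3 healthy-skin arrays above background. Mbtps2, a Golgi protease that releases ATF6, differed by -1.03 with 0 of 3 tumour arrays and 1 of 3 healthy-skin arrays above background, and Nfe2l2, the factor of the oxidative stress response that PERK can phosphorylate, by -1.74, and by 0.61 on its second probe set (limma adjusted p = 0.794 and 0.836 for the first values). Tumour replicate 1 had 6.64 for Nfe2l2 and the other tumour samples 3.91 and 3.03, against 6.19 to 6.33 in healthy skin.

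**Figure D5:**
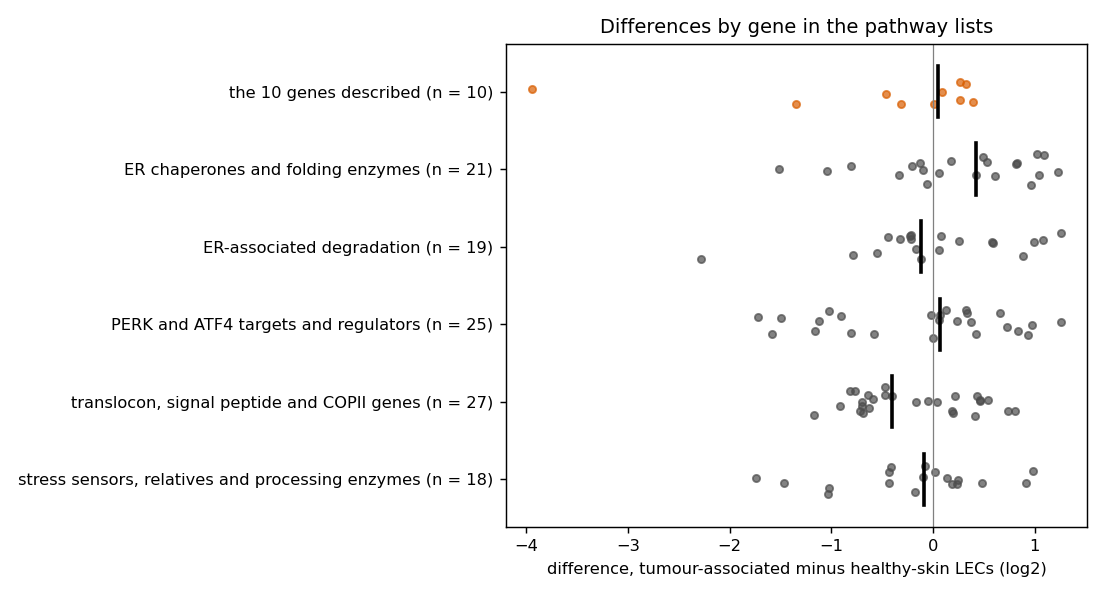
Difference between tumour-associated and healthy-skin LECs (log2, horizontal axis) for the brightest probe set of each gene in 6 sets, with a point per gene and the median as a black bar. Medians run from -0.40 for the translocon list to 0.42 for the chaperone list, and the point at -3.94 is probe set 1437223_s_at of Xbp1, which was selected on this difference. Other probe sets of the same genes, such as that of Psat1 at -4.34, are not drawn.

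Healthy-skin replicate 1 and tumour replicate 3 were often the lowest array in the lists of ER genes. Healthy-skin replicate 1 was the lowest of the 6 arrays for 8 of 21 chaperones and folding enzymes, 7 of 19 degradation genes and 10 of 27 translocon genes, and for 4 of the 6 probe sets of Hspa5, Hsp90b1 and Dnajb9, against 9.98% of all genes. It was lowest for 2 of 25 genes of the PERK and ATF4 list, 4 of 18 sensors and relatives and 1 of the 18 probe sets of the 10 genes outside Xbp1 and the chaperones. Tumour replicate 3 was lowest for 7 of 18 sensors and relatives, 8 of 27 translocon genes, 6 of 19 degradation genes, 6 of 25 genes of the PERK and ATF4 list and 3 of 21 chaperones and folding enzymes, against 12.8% of all genes. Healthy-skin replicate 3 was the array most often lowest over all genes, at 34.2%. Relative to the healthy-skin mean, the translocon list averaged -0.18, 0.28 and -0.69 (log2) in tumour replicates 1, 2 and 3, and -0.65, 0.49 and 0.16 in healthy-skin replicates 1, 2 and 3. The chaperone list averaged 0.02, 0.80 and -0.09 in tumours and -0.44, 0.44 and 0.00 in healthy skin. On healthy-skin replicate 1, 41.7% of probe sets were above background, the lowest share in healthy skin, where replicates 2 and 3 had 50.3% and 56.0% and the tumours 48.4%, 46.6% and 39.6%. Lyve1 was also lowest there, at 3.21, against 7.58 and 6.81 in the other healthy-skin samples. Control probe sets at the 3 prime and 5 prime ends of an mRNA also differed by unlike amounts between arrays (3 prime minus 5 prime, log2). For Gapdh this was 2.15, 4.1 and 2.29 in tumours and 3.72, 3.23 and 2.77 in healthy skin. For the transferrin receptor it was -1.76, 0.05 and -1.22 in tumours and -1.28, -3.61 and -2.71 in healthy skin. For beta-actin it lay between -0.63 and 0.6. The part of these array properties in the ER gene levels was not tested.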

How the data were processed

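The authors deposited 1 intensity per probe set and array, on a linear scale judging by the values. RMA (background correction, quantile normalization and a summary per probe set) is named in the submitters' processing notes, while its software, its version and possible filters were not given in the sources used here. The intensities were converted to log2 with nothing added and no further normalization, leaving 64 control probe sets aside. Of the tested probe sets 34945 carried 1 symbol in the platform annotation and 932 several, which were not used. No symbol changed when matched to RefSeq by Entrez identifier (34741 matched).

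The test was that of limma 3.58.1 (R 4.3.3), two-sided and with no block, adjusted by Benjamini-Hochberg over 45037 probe sets and checked on simulated data. The genes described, the pathway lists and the marker lists were chosen with earlier results of these data known. Of 115 pathway genes listed, 110 were represented. From each list the 4 genes with the smallest p were named, with 5 genes by likeness to Xbp1. Calr, Canx, Dnajc3, Ero1b, Asns and Psat1 were added after their values were seen. Alternatives covered the scaling, an added constant, a filter on dim probe sets, the block, the fit options, the mean over probe sets and each array left out. Signal over background and the number of arrays limit the precision.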

Additional observations from a re-analysis of the deposited data

How the results depend on the processing

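Leaving out 1 array at a time moved the Xbp1 difference of 1437223_s_at between -4.09 and -3.69. It was -2.27 with log2(value + 16) and -1.67 as the mean of all 4 probe sets. The median difference of the 10 genes (0.05) ranged from -0.20 to 0.14 with 1 array left out, with -0.20 without tumour replicate 3 and -0.16 without healthy-skin replicate 1. Of the probe sets described, Atf4 1438992_x_at moved to -0.48 as a mean over probe sets. The count of called probe sets (2) was 21 with only probe sets above background on at least 3 arrays, 1 with trend and robust options, 0 after centring on array medians, 0 with log2(value + 16) and 0 with the replicate number as a block, and ranged from 0 to 23 with 1 array left out, 23 without tumour replicate 2 and 0 without any other. The limma fits over all 45037 probe sets with no call had 2167 to 3726 probe sets at an unadjusted p under 0.05, against 2863. Quantile normalization also gave 2, of which 1 was shared. The 21 include 1437223_s_at of Xbp1, which passed that filter through its healthy-skin arrays alone and so had to differ. No pathway gene was called under any alternative run. Replicate numbers are not known to pair the samples: deviations of same-numbered samples correlated at 0.04, 0.10 and -0.01, and tumour replicate 3 correlated best with healthy-skin replicate 1 (0.12). The difference of Xbp1 with the replicate block was -3.94. The number of arrays limits every comparison, and probe sets below background give bounds only.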
